A study of Mus musculus with 180 samples.

Results

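The Bcl2 family holds the genes that set whether a cell commits to death through its mitochondria. Its anti-apoptotic members Bcl2, Mcl1 and Bcl2l1 (Bcl-xL) bind and hold back the other members. The effectors Bax and Bak1 form pores in the outer mitochondrial membrane, through which cytochrome c leaves to start the caspases. The BH3-only members Bcl2l11 (Bim), Bid, Bad, Bbc3 (Puma) and Pmaip1 (Noxa) sense stress or loss of growth factor and either occupy the anti-apoptotic proteins or act on the effectors. In blood-forming tissue, Mcl1 is needed for survival of haematopoietic stem cells (HSC), Bcl-xL is best known for keeping maturing red cells alive, and Bbc3 and Pmaip1 are targets of p53. Much of this control acts on the proteins, so the transcript levels below are not a measure of death.

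These 10 genes were taken by name from a table of 14825 genes, and all 10 were present in it. They were described in 180 single cells of 4 populations from C57BL/6 mice, sequenced by a Smart-Seq2 type method. The CD11b+CD48+SK cells (47) were donor-derived Sca1+c-kit+ cells taken from the first recipients 8 weeks after transplantation. Their donors were Mx1cre/RosaLSL-Hoxb5-EGFP/+ multipotent progenitors (MPP), placed in irradiated CD45.1+ mice, in which pIpC induced the Mx1 promoter and thus Cre and the ectopic Hoxb5. The WT-MPP (41) and BM HSC (36) came from 8-week-old RosaLSL-Hoxb5-EGFP/+ mice, which carry the Hoxb5 cassette but no Cre and are named Hoxb5LSL/+ in the labels. The FL HSC (56) came from RosaLSL-Hoxb5-EGFP/+ embryos at Day14.5 and were sorted by their surface markers (CD45.2+, Lin-, CD150+, CD11b+, Sca1+ and c-kit+). One label of the FL HSC names bone marrow as their source, whereas the cell type label names fetal liver. Transplanted MPP without Cre were not among the populations, so Hoxb5, transplantation, pIpC and the sort cannot be told apart in the CD11b+CD48+SK. Mx1 responds to interferon in many cell types, and how many clones or animals the sorted cells came from was not given in the sources used here.

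The labels name no animal, and each population was therefore treated as 1 sample and no test between populations was made. The values were TPM, the share of a cell’s transcripts after scaling per gene length, which can be compared between genes. A gene counted as present in a cell at a TPM of 1 or more, and shares of cells carry an exact 95% interval (Clopper-Pearson) that reflects only how many cells were counted. Differences between populations are differences in the mean over cells of log2(TPM+1), which understate the change of low genes. A difference of at least 1 was used to count genes as past the mark. Where 4 values stand in a row without names, they are those of CD11b+CD48+SK, WT-MPP, BM HSC and FL HSC, in that order. Read depth is unknown from TPM, and the number of genes present per cell had a median of 4514 in CD11b+CD48+SK, 4442 in BM HSC, 3844 in WT-MPP and 5206 in FL HSC. Many values are therefore also given for the cells with 3500 to 5000 genes, which were 33 CD11b+CD48+SK, 21 BM HSC, 30 WT-MPP and 22 FL HSC. Of the sort markers, Cd48 was present in 100% of CD11b+CD48+SK and at most 17.9% of cells elsewhere, and Itgam (CD11b) in 36.2% against 16.1% of FL HSC. The HSC genes Procr, Hlf and Mecom were present in 21.3%, 17.02% and 6.38% of CD11b+CD48+SK against 75%, 77.8% and 66.7% of BM HSC, and Mpo of myeloid cells in 91.5% against 11.1%.

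The promoters of 3 members are shown because the results turn on these genes: the anti-apoptotic pair Bcl2 and Bcl2l1, whose order changed between populations, and Bax, the most abundant member. They are RefSeq sequences of GRCm38.p6, from 250 bases before to 50 bases after the start, written 5′ to 3′ on the strand of the gene. Capitals mark the GC box GGGCGG and the E box CACGTG on either strand. The Bcl2 window is chr1:106714241-106714540 on the minus strand, that of Bcl2l1 is chr2:152828440-152828739 on the minus strand, the first listed of its 3 starts, and that of Bax is chr7:45466849-45467148 on the minus strand.
Bcl2: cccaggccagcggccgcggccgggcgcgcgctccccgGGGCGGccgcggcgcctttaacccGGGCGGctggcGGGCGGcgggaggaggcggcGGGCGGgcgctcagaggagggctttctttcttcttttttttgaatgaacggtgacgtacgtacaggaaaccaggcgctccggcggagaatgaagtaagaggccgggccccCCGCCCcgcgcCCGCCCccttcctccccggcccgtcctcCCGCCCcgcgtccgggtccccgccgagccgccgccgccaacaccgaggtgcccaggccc
Bcl2l1: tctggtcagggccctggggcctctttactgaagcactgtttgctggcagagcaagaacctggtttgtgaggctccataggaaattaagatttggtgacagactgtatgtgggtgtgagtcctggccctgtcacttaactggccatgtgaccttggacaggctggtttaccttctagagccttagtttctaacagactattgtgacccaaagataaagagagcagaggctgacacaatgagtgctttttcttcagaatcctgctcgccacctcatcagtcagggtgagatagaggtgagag
Bax: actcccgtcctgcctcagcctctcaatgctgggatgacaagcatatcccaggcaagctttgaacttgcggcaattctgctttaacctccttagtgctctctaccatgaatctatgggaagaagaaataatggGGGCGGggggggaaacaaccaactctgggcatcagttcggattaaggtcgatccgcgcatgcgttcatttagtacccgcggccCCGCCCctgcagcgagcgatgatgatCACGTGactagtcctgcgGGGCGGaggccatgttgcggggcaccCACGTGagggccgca
The Bcl2 window had a GC content of 76.0% and 7 GC boxes, and the Bax window had 3 GC boxes and 2 E boxes. The Bcl2l1 window lies inside the gene, whose 5′ end is at position 152831728. It had a GC content of 49.3% and neither motif, and the other listed starts of Bcl2l1 were not searched. Counting only the first listed start of each gene, a GC box was found in 7 of the 9 members whose promoter was matched in the RefSeq table. The share over all 27025 promoters was 35.9%. An E box was found in Bax alone of the 9, against 7.24% of all promoters. The letters TAAT, the core that many Hox proteins bind, were in 4 of the 9 (Bcl2l1, Bax, Bid and Bad), against 58.3% of all promoters. TATAAA was in 0 of the 9, against 14.2%. These are matches of letters, counted on both strands, and no binding was measured.

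Bcl2 lies on chromosome 1 (106538178 to 106714274, minus strand), Bcl2l1 on chromosome 2 (152780668 to 152831728, minus strand), Bax on chromosome 7 (45461697 to 45466898, minus strand) and Bak1 on chromosome 17 (27019810 to 27029009, minus strand) in GRCm38. Values were per gene, so the long and short forms of Bcl2l1, which act in opposite ways, are not separated. Whether reads were counted by strand was not given in the sources used here. Exons of Bid overlap Bcl2l13 on the other strand, those of Bad overlap Gpr137 and those of Bak1 overlap Ggnbp1, so reads there could be shared. Exons of Bax overlap the protein-coding Gm45808 on the same strand and those of Bcl2 overlap the antisense D630008O14Rik. Neither of these 2 names was among the 14825 genes listed, so their levels cannot be given. Counting by strand could not separate Gm45808 from Bax. The other overlapping genes were low over all cells, with mean TPM of 7.19 for Bcl2l13, 9.60 for Gpr137 and 4.80 for Ggnbp1. For Bak1, whose own mean TPM was between 2.58 and 6.18 in the 4 populations, that is as large as the gene itself.

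**Figure D1:**
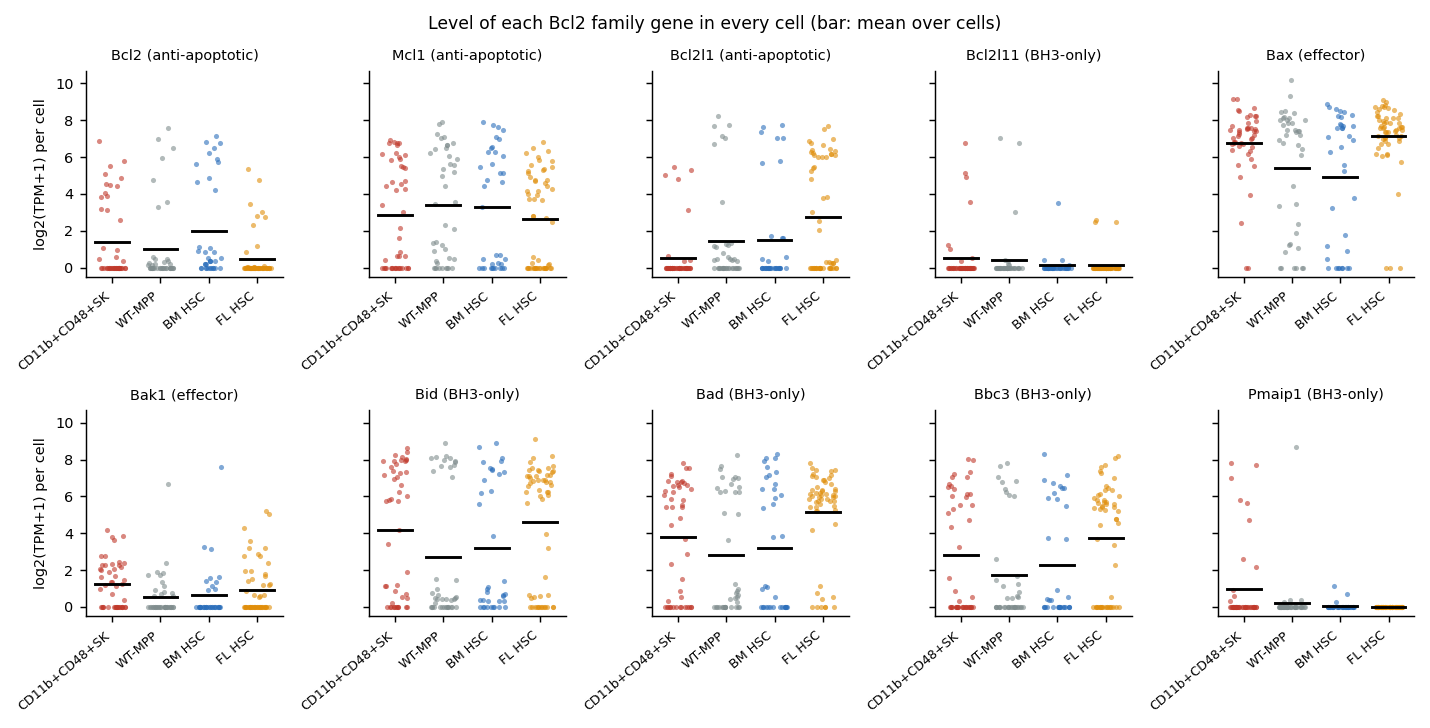
Each point is 1 cell and each bar the mean over the cells of a population, on a scale of log2(TPM+1), with 1 panel per gene and 4 populations per panel. Bax lies near its mean in almost every CD11b+CD48+SK cell and FL HSC, with 2 and 3 cells at 0, while most other members split into cells at or near 0 and cells far above it.

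Bax was the most abundant member in all 4 populations and Bcl2l11 and Pmaip1 were among the least. The order of mean log2(TPM+1) in CD11b+CD48+SK ran from Bax (6.79) over Bid (4.20), Bad (3.77), Mcl1 (2.84), Bbc3 (2.81), Bcl2 (1.40), Bak1 (1.24), Pmaip1 (0.97) and Bcl2l1 (0.54) to Bcl2l11 (0.50). Apart from Bax, the SD over cells of each gene, between 1.27 and 3.46, was larger than the step to its neighbour in that order. Mcl1 was in place 2 of 10 in WT-MPP (3.38) and BM HSC (3.28) and in place 6 in FL HSC (2.64), and Bcl2l1 went from place 9 in CD11b+CD48+SK to place 5 in FL HSC (2.76).

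Bcl2 was highest in BM HSC and lowest in FL HSC. Its TPM ran from 0 over a median of 0 to 118 in CD11b+CD48+SK, from 0 over 0 to 187 in WT-MPP, from 0 over 0.36 to 141 in BM HSC, and from 0 over 0 to 40.1 in FL HSC. It was present in 31.9% of CD11b+CD48+SK (15 of 47, interval 19.1 to 47.1%), 36.1% of BM HSC (13 of 36, 20.8 to 53.8%), 17.1% of WT-MPP (7 of 41, 7.15 to 32.1%) and 14.3% of FL HSC (8 of 56, 6.38 to 26.2%). The ranges overlap in all 4 populations, and most cells of each lay below a TPM of 1. With any TPM above 0 counted, Bcl2 was in 40.4% of CD11b+CD48+SK, 69.4% of BM HSC (51.9 to 83.7%), 41.5% of WT-MPP and 33.9% of FL HSC (21.8 to 47.8%). In the cells with Bcl2, its median TPM was 20.4 in CD11b+CD48+SK, 52.7 in BM HSC, 60.6 in WT-MPP and 6.63 in FL HSC, so FL HSC were low both in the number of cells and in the level per cell. Mean TPM was 8.66, 12.4, 21.03 and 1.82. The WT-MPP and FL HSC means rested in part on 1 cell each, and were 8.09 and 1.12 without the highest cell. Among cells with 3500 to 5000 genes the shares were 21.2% of CD11b+CD48+SK (8.98 to 38.9%), 42.9% of BM HSC (21.8 to 66.0%), 20% of WT-MPP and 4.55% of FL HSC (1 of 22, 0.12 to 22.8%).

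Bcl2l1 showed the widest spread of shares among the anti-apoptotic genes. It was present in 10.6% of CD11b+CD48+SK (5 of 47, interval 3.55 to 23.1%), 27.8% of BM HSC (10 of 36, 14.2 to 45.2%), 29.3% of WT-MPP (12 of 41, 16.1 to 45.5%) and 48.2% of FL HSC (27 of 56, 34.7 to 62.0%). The intervals of CD11b+CD48+SK and FL HSC did not overlap. The highest cell reached a TPM of 43.7 in CD11b+CD48+SK, 210 in BM HSC, 304 in WT-MPP and 205 in FL HSC, and the median was 0 in all but the FL HSC, where it was 0.29. Mean TPM was 3.17, 27.4, 26.3 and 33.9, so the CD11b+CD48+SK were lowest on both measures. Among cells with 3500 to 5000 genes the share was 3.03% (1 of 33) in CD11b+CD48+SK and 40.9% (9 of 22) in FL HSC.

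Mcl1 was found in more cells of every population than Bcl2 or Bcl2l1. Its share was 53.2% of CD11b+CD48+SK (38.1 to 67.9%), 52.8% of BM HSC (35.5 to 69.6%), 65.9% of WT-MPP (49.4 to 79.9%) and 55.4% of FL HSC (41.5 to 68.7%), and all 4 intervals overlapped. Mean TPM was 28.3, 44.5, 48.01 and 18.8. The median TPM over cells was 3.44 in CD11b+CD48+SK, 14.7 in BM HSC, 9.95 in WT-MPP and 5.97 in FL HSC, and the highest cells reached 123, 240, 237 and 110. Over all cells, levels therefore differed more than shares. The cells with Mcl1 had a median TPM of 25.8 in FL HSC and 77.1 in BM HSC. Shares lay further apart in cells with 3500 to 5000 genes, from 42.9% of BM HSC (21.8 to 66.0%) to 73.3% of WT-MPP (54.1 to 87.7%). They were 54.5% of CD11b+CD48+SK and 50% of FL HSC there, and the intervals of all populations still overlapped.

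**Figure D2:**
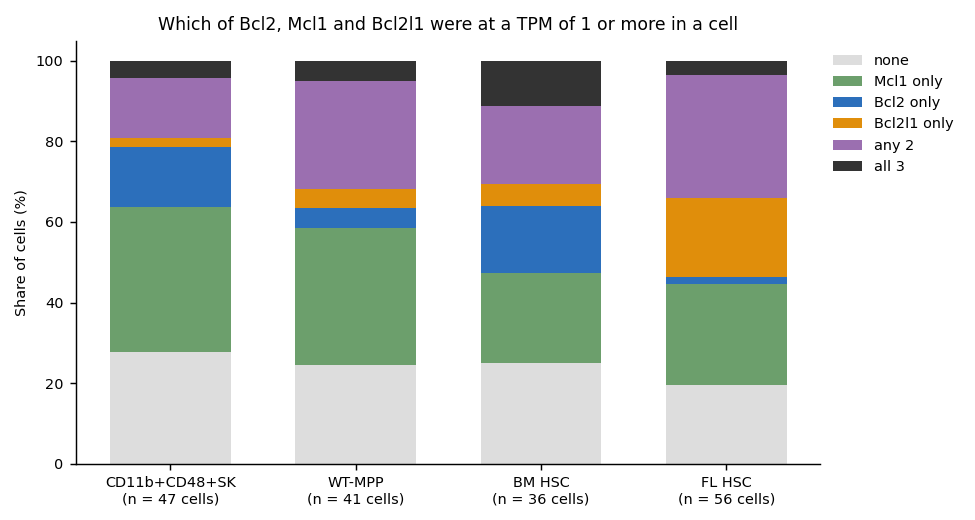
Each bar is a population of cells split by which of Bcl2, Mcl1 and Bcl2l1 were at a TPM of 1 or more, in percent of its cells. Cells with Bcl2l1 as the only one of the 3 are 2.13% of CD11b+CD48+SK and 19.6% of FL HSC, and cells with none are 19.6 to 27.7%.

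Cells with none of the 3 anti-apoptotic transcripts were found at a like share in every population, 27.7% of CD11b+CD48+SK (15.6 to 42.6%), 25% of BM HSC, 24.4% of WT-MPP and 19.6% of FL HSC (10.2 to 32.4%). What differed was which gene was there. Bcl2 without Bcl2l1 was seen in 25.5% of CD11b+CD48+SK (13.9 to 40.4%) and 7.14% of FL HSC (1.98 to 17.3%). Bcl2l1 without Bcl2 was seen in 4.26% of CD11b+CD48+SK (0.52 to 14.54%) and 41.1% of FL HSC (28.1 to 55.02%). The adult populations lay between, with 12.2% and 24.4% of WT-MPP and 25% and 16.7% of BM HSC for these patterns. In cells with 3500 to 5000 genes, Bcl2 without Bcl2l1 was in 21.2% of CD11b+CD48+SK and 0 of 22 FL HSC (0 to 15.4%), and Bcl2l1 without Bcl2 in 3.03% and 36.4%. BM HSC did not lie between there for the first pattern, at 38.1% (18.1 to 61.6%), and had 14.3% for the second. WT-MPP had 13.3% and 23.3%. Cells with none of the 3 were then 33.3% of CD11b+CD48+SK, 23.8% of BM HSC, 16.7% of WT-MPP and 18.2% of FL HSC. Both genes together were present in 6.38%, 4.88%, 11.1% and 7.14% of cells. These patterns follow from the 2 shares above and add no separate observation on how the genes go together.

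Bax was present in almost all CD11b+CD48+SK and FL HSC, and in fewer cells of the other populations. Its share was 95.7% of CD11b+CD48+SK (45 of 47, 85.5 to 99.5%), 72.2% of BM HSC (26 of 36, 54.8 to 85.8%), 82.9% of WT-MPP (34 of 41, 67.9 to 92.9%) and 94.6% of FL HSC (53 of 56, 85.1 to 98.9%). TPM ran from 0 over a median of 148 to 579 in CD11b+CD48+SK, from 0 over 144 to 1163 in WT-MPP, from 0 over 107 to 472 in BM HSC and from 0 over 188 to 556 in FL HSC. The populations overlapped over nearly all of their ranges. Where Bax was present, its median TPM was 154 in CD11b+CD48+SK, 191 in BM HSC, 173 in WT-MPP and 192 in FL HSC, so the cells that had it held similar amounts. Mean TPM was 172, 166, 139 and 209. The lower mean log2 level of WT-MPP and BM HSC came with more cells at exactly 0 (6 and 8) or below a TPM of 1 (1 and 2). Genes per cell had a median of 3844 for WT-MPP, while BM HSC (4442) and CD11b+CD48+SK (4514) lay close together. Within BM HSC, Bax had a Spearman's rho of 0.43 with the number of genes per cell, and between -0.12 and 0.22 elsewhere. Without cells under 3000 genes, the Bax difference of CD11b+CD48+SK minus BM HSC went from 1.86 to 1.49. The part of gene number in the Bax shares was not tested. Bax was present in 93.9% of CD11b+CD48+SK with 3500 to 5000 genes (79.8 to 99.3%) and 71.4% of such BM HSC (47.8 to 88.7%). Its share there was 83.3% of WT-MPP and 86.4% of FL HSC, and the intervals of all populations overlapped.

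Bak1, the other effector, was a low transcript. It was present in 53.2% of CD11b+CD48+SK (25 of 47, 38.1 to 67.9%), 22.2% of BM HSC (8 of 36, 10.1 to 39.2%), 19.5% of WT-MPP (8 of 41, 8.82 to 34.9%) and 33.9% of FL HSC (19 of 56, 21.8 to 47.8%). The intervals of CD11b+CD48+SK and WT-MPP did not overlap. Where present, its median TPM was between 2.001 and 4.20, so its shares rest on the level that counts as present. At a TPM of 5 or more they were 12.8% of CD11b+CD48+SK (4.83 to 25.7%) and 2.44% of WT-MPP (0.06 to 12.9%), and at any TPM above 0 they were 59.6% (44.3 to 73.6%) and 34.1% (20.1 to 50.6%), and the intervals overlapped at both levels. A WT-MPP of 102 TPM and a BM HSC of 196 TPM stood far above the others, and the mean of 2.99 and 6.18 fell to 0.52 and 0.76 without these cells, against 2.58 in CD11b+CD48+SK and 2.80 in FL HSC. Among cells with 3500 to 5000 genes the shares were 42.4% of CD11b+CD48+SK (25.5 to 60.8%) and 26.7% of WT-MPP (12.3 to 45.9%), and these intervals overlapped.

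Both effectors together were present in 51.1% of CD11b+CD48+SK (36.1 to 65.9%), 13.9% of BM HSC (4.67 to 29.5%), 12.2% of WT-MPP (4.08 to 26.2%) and 32.1% of FL HSC (20.3 to 45.96%). With 3500 to 5000 genes per cell, it was 39.4% of CD11b+CD48+SK (22.9 to 57.9%) and 16.7% of WT-MPP (5.64 to 34.7%). Bak1 without Bax was rare, at 1.79 to 8.33% of cells. Neither was present in 2.13% of CD11b+CD48+SK, 19.4% of BM HSC, 9.76% of WT-MPP and 3.57% of FL HSC. The cells with both were 24 CD11b+CD48+SK and 5 WT-MPP, where the product of the 2 shares gives 23.9 and 6.63 cells. These patterns thus restate the shares of Bax and Bak1, and rest on the same level of presence as that of Bak1.

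Bid, which is cut by caspase 8 and carries the death receptor signal to mitochondria, was the most abundant BH3-only gene by mean TPM in every population (97.6, 78.5, 78.2 and 91.8 in CD11b+CD48+SK, WT-MPP, BM HSC and FL HSC). It was present in 66.0% of CD11b+CD48+SK (50.7 to 79.1%), 47.2% of BM HSC (30.4 to 64.5%), 39.02% of WT-MPP (24.2 to 55.5%) and 67.9% of FL HSC (54.04 to 79.7%). Its median TPM was 53.9, 0.39, 0.89 and 77.8. By mean log2(TPM+1), Bad lay above Bid in FL HSC (5.16 against 4.59) and WT-MPP (2.83 against 2.73). They were near equal in BM HSC (3.21 and 3.20), and Bid lay above Bad in CD11b+CD48+SK (4.20 against 3.77). Cells fell at or near 0 or far above it, and the cells that had Bid held a median TPM between 117 and 222. With 3500 to 5000 genes per cell, the shares were 57.6% of CD11b+CD48+SK and 50% of WT-MPP, against 66.0% and 39.02% over all cells.

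Bad, whose protein is held inactive by growth factor signalling, was present in 83.9% of FL HSC (47 of 56, 71.7 to 92.4%), 63.8% of CD11b+CD48+SK (48.5 to 77.3%), 52.8% of BM HSC (35.5 to 69.6%) and in 46.3% of WT-MPP (30.7 to 62.6%). The interval of FL HSC lay above those of WT-MPP and BM HSC. The median TPM was 62.8 in FL HSC, 41.3 in CD11b+CD48+SK, 1.16 in BM HSC and 0.67 in WT-MPP, whereas the cells with Bad held similar medians, from 68.1 in FL HSC to 86.2 in WT-MPP. The populations thus differed in how many cells had the transcript rather than in its level there. In cells with 3500 to 5000 genes the share was 77.3% of FL HSC (54.6 to 92.2%) and 56.7% of WT-MPP (37.4 to 74.5%), and no interval of Bad was apart from another.

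Bbc3 showed a like order, present in 64.3% of FL HSC (50.4 to 76.6%), 46.8% of CD11b+CD48+SK (32.1 to 61.9%), 36.1% of BM HSC (20.8 to 53.8%) and in 34.1% of WT-MPP (20.1 to 50.6%). Mean TPM was 41.2, 26.4, 33.7 and 49.7. All 4 intervals overlapped. In the cells with Bbc3 the median TPM was between 51.5 and 86.2. The shares in cells with 3500 to 5000 genes were 68.2% of FL HSC, 51.5% of CD11b+CD48+SK, 38.1% of BM HSC and 36.7% of WT-MPP.

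Pmaip1 was seen in 8 of 47 CD11b+CD48+SK (17.02%, 7.65 to 30.8%), 1 of 36 BM HSC (2.78%, 0.07 to 14.53%), 1 of 41 WT-MPP (2.44%, 0.06 to 12.9%) and 0 of 56 FL HSC, a count that allows a share of up to 6.38%. The interval of CD11b+CD48+SK did not overlap that of FL HSC. The 8 CD11b+CD48+SK had a median TPM of 52.8 and a highest value of 224. The WT-MPP mean of 9.88 rested on 1 cell of 404 TPM and was 0.02 without it, and the BM HSC cell had a TPM of 1.23. Pmaip1 was listed at 0 in every FL HSC, so no fold is given against them. Among cells with 3500 to 5000 genes it was present in 6 of 33 CD11b+CD48+SK and 0 of 30, 21 and 22 cells of the other populations.

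Bcl2l11 was present in 12.8% of CD11b+CD48+SK (6 of 47, 4.83 to 25.7%), 2.78% of BM HSC (1 of 36), 7.32% of WT-MPP (3 of 41) and 5.36% of FL HSC (3 of 56). All 4 intervals overlapped. Single cells of 109 and 132 TPM held 58.8% and 53.2% of all Bcl2l11 transcript in the CD11b+CD48+SK and WT-MPP, while the highest FL HSC had a TPM of 5.13.

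**Figure D3:**
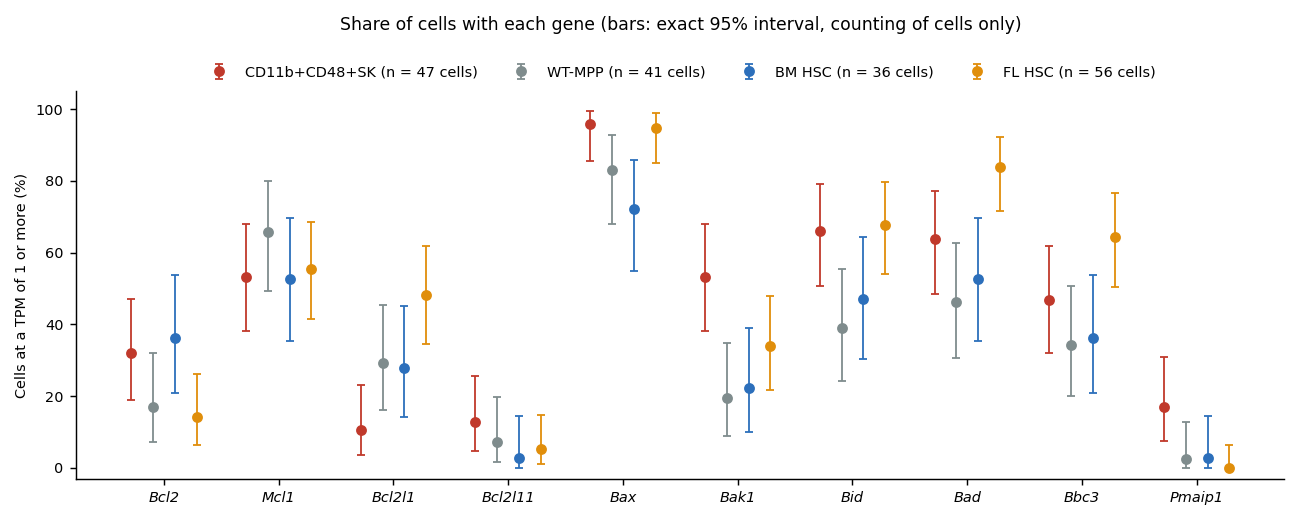
Points give the percent of cells of each population with the gene at a TPM of 1 or more and bars the exact 95% interval from counting cells. Bcl2l1 goes from 10.6% of CD11b+CD48+SK to 48.2% of FL HSC, and Bak1 from 19.5% of WT-MPP to 53.2% of CD11b+CD48+SK.

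Over the whole family, intervals that did not overlap at a TPM of 1 or more were few. They were about as frequent as in other genes. Between CD11b+CD48+SK and WT-MPP 1 of 10 members was apart (Bak1), against 7.77% of the 10856 genes that were present in 10% or more of the cells in 1 or more populations. Between CD11b+CD48+SK and FL HSC 2 of 10 were apart (Bcl2l1 and Pmaip1), against 10.8%. Bad alone was apart in both pairings of an adult population with FL HSC, against 19.1% for WT-MPP and 10% for BM HSC. No member was apart between CD11b+CD48+SK and BM HSC (7.44% of genes) or between WT-MPP and BM HSC (2.06%). Among cells with 3500 to 5000 genes, Bcl2l1 between CD11b+CD48+SK and FL HSC was the 1 member left apart, against 4.76% of genes. Bcl2l1 was apart between these populations at a TPM of 5 or more and at any TPM above 0 as well, and so was Bad in its pairings with FL HSC, whereas Bak1 was apart at neither level. Pmaip1 was apart at any TPM above 0 but not at 5 or more. The share of all genes apart was not computed at these other levels. No pair apart there is therefore read as particular to the members. Pairs that were apart only at another level were Bcl2 in BM HSC and FL HSC and Bcl2l1 in CD11b+CD48+SK and WT-MPP at any TPM above 0, and at 5 or more Bax in BM HSC against CD11b+CD48+SK and FL HSC, and Bax, Bid and Bbc3 in WT-MPP and FL HSC.

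On the log2 scale, all 10 members passed the filter on low values. CD11b+CD48+SK minus WT-MPP, the comparison of the Hoxb5-expressing progeny with the cell type it was made from, had 3 of 10 members past a difference of 1, all higher, where 24% of all filtered genes were past it (19% higher and 5.01% lower). They were Bid (1.48), Bax (1.40) and Bbc3 (1.06). The median difference was 0.70 over the members and 0.21 over all genes, so genes in general also lay higher in the CD11b+CD48+SK. Bad (0.94), Pmaip1 (0.73), Bak1 (0.68), Bcl2 (0.38) and Bcl2l11 (0.06) were higher and within the mark, and Bcl2l1 (-0.89) and Mcl1 (-0.53) were the members with lower values. Taken as log2 of the mean TPM plus 1, Bax differed by 0.05, Bid by 0.31 and Bbc3 by 0.62, and Bcl2l1, at -2.77, was the 1 member past the mark. By that measure Bcl2 (-0.48), Bak1 (-0.16) and Bcl2l11 (-0.51) lay below 0. In cells with 3500 to 5000 genes none of the 3 called members stayed past 1, with Bax at 0.88, Bbc3 at 0.80 and Bid at -0.13. Bcl2l1 (-1.63) and Pmaip1 (1.20) were past it there, and Bad (-0.30) and Bcl2 (-0.17) lay below 0.

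CD11b+CD48+SK minus BM HSC had 1 member of 10 past the mark (Bax, 1.86), where 25.2% of genes were past it. Bid (0.998) and Bcl2l1 (-0.98) lay just inside it. Bcl2 (-0.62) and Mcl1 (-0.43) were lower too, although Mcl1 was higher by 0.36 in cells with 3500 to 5000 genes. The median was 0.55 over the members and -0.001 over all genes. Taken as log2 of the mean TPM plus 1, Bax differed by 0.31 and was within the mark, whereas 5 members were past it. The share of all genes past it by that measure was not computed.

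CD11b+CD48+SK minus FL HSC had 2 members past the mark, both lower, Bcl2l1 (-2.23) and Bad (-1.39), where 25% of genes were past it (20.9% lower and 4.02% higher). Bcl2 (0.92) and Pmaip1 (0.97) were the members with the largest values in the other direction, higher than those of 95.3% and 95.7% of all genes. The members' median was -0.07 and that of all genes -0.32. In cells with 3500 to 5000 genes, Bcl2l1 (-2.39), Bad (-1.63), Bbc3 (-1.40) and Bid (-1.30) were past the mark lower and Pmaip1 (1.23) higher. The median of all genes was -0.19 there. Bcl2l1 was past the mark in the same direction under all 7 alternatives tried, with values between -3.50 and -1.09. Bad kept its direction but fell within the mark as log2 of the mean TPM plus 1 (-0.40) and with a pseudocount of 10 (-0.71).

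FL HSC minus BM HSC, a comparison of fetal with adult stem cells, had the most members past the mark, 5 higher and 1 lower, where 31% of genes were past it (25.6% higher and 5.44% lower). Bax (2.20), Bad (1.95), Bbc3 (1.45), Bid (1.38) and Bcl2l1 (1.24) were higher in FL HSC and Bcl2 (-1.53) was lower. Mcl1 was also lower, at -0.64. The median was 0.77 over the members and 0.31 over all genes. As log2 of the mean TPM plus 1, none of the 5 stayed past 1 (Bad 0.17, Bid 0.23, Bcl2l1 0.35, Bbc3 0.55, Bax 0.59), whereas Bcl2 was at -2.97. More FL HSC had these 5 transcripts, and the FL HSC that had them held median TPM of 51.5 (Bbc3) to 192 (Bax), against 85.0 (Bad) to 191 (Bax) in BM HSC.

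WT-MPP minus BM HSC had 0 members past the mark, where 17.2% of genes were past it. The values ran from -0.99 for Bcl2 to 0.46 for Bax, with a median of -0.09 over the members and -0.22 over all genes. With 3500 to 5000 genes per cell, 8 members lay above 0, against 4 over all cells. The median there was 0.51 over the members and -0.07 over all genes. Mcl1 (1.34) and Bcl2 (-1.26) were past the mark there, so its count of 0 holds for all cells only. With 1 sample per population, none of these differences has a replicate behind it. The comparisons share populations, so they are not separate observations.

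**Figure D4:**
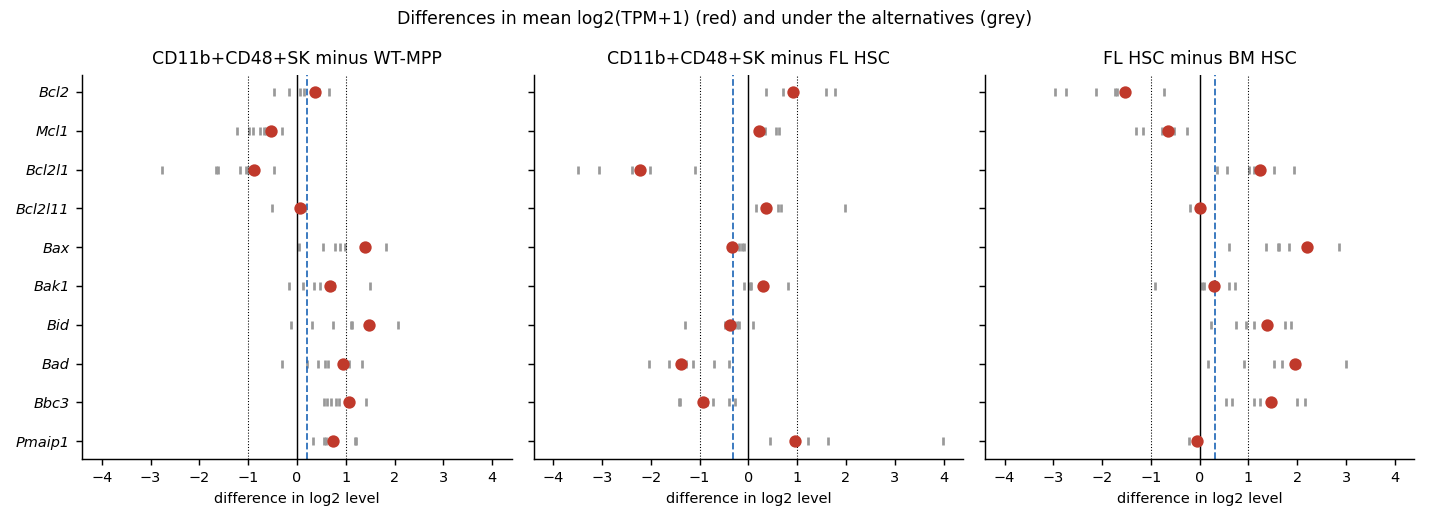
Red points are differences in mean log2(TPM+1) between 2 populations for each gene, grey ticks the same difference under 7 alternatives, dotted lines a difference of 1 either way and the blue dashed line the median of all genes (0.21, -0.32 and 0.31). Bcl2l1 in CD11b+CD48+SK minus FL HSC (-2.23) keeps all its ticks beyond the dotted line, while Bid in CD11b+CD48+SK minus WT-MPP (1.48) has ticks on both sides of 0.

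Within 1 cell, a median of 5 of the 10 members was present in CD11b+CD48+SK (from 1 to 7), 3 in WT-MPP (from 1 to 6), 3 in BM HSC (from 0 to 7) and 5 in FL HSC (from 2 to 8). Among cells with 3500 to 5000 genes the medians were 4, 4, 3 and 5. When any TPM above 0 counted, the medians of WT-MPP and BM HSC were 5 as well. Of the 5 BH3-only genes, at least 2 were in most CD11b+CD48+SK (2 in 48.9% and 3 in 25.5%). The same held for FL HSC, with 2 in 26.8% and 3 in 48.2% (34.7 to 62.0%). WT-MPP had 2 in 26.8% and 3 in 7.32%, and BM HSC had 2 in 33.3% and 3 in 11.1%. Bid, Bad and Bbc3 were together in 46.4% of FL HSC (32.99 to 60.3%), 21.3% of CD11b+CD48+SK (10.7 to 35.7%), 13.9% of BM HSC and in 9.76% of WT-MPP. For cells with 3500 to 5000 genes this was 45.5% of FL HSC (24.4 to 67.8%), 15.2% of CD11b+CD48+SK, 14.3% of BM HSC and 13.3% of WT-MPP.

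Since TPM is per length, the levels of members can be added within a cell. The summed anti-apoptotic transcript had a median TPM of 23.99 in CD11b+CD48+SK, 55.8 in BM HSC, 49.5 in WT-MPP and 37.4 in FL HSC. The summed effector transcript had medians of 150, 144, 127 and 191, and the summed BH3-only transcript 188, 123, 137 and 207. As a log2 ratio with 1 TPM added to both sums, anti-apoptotic over effector had a median of -1.85 in CD11b+CD48+SK (quartiles -5.85 and -1.08), -0.87 in WT-MPP (-3.90 and 0.49), -0.48 in BM HSC (-1.98 and 2.46) and -2.59 in FL HSC (-4.61 and -0.84). The ranges overlapped widely. The anti-apoptotic sum was the larger in 6.38% of CD11b+CD48+SK, 38.9% of BM HSC, 36.6% of WT-MPP and 10.7% of FL HSC. Anti-apoptotic over BH3-only had medians of -2.37, -0.77, -0.76 and -2.13. In cells with 3500 to 5000 genes the medians were -1.68, -0.73, -0.54 and -2.88 over effector and -2.02, -1.07, -0.85 and -2.56 over BH3-only. The summed BH3-only transcript had medians of 164, 198, 132 and 237 there, with WT-MPP above CD11b+CD48+SK and not below it, and the anti-apoptotic sum 17.9, 89.2, 48.4 and 33.3. A ratio of transcripts says nothing of the proteins or their binding.

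**Figure D5:**
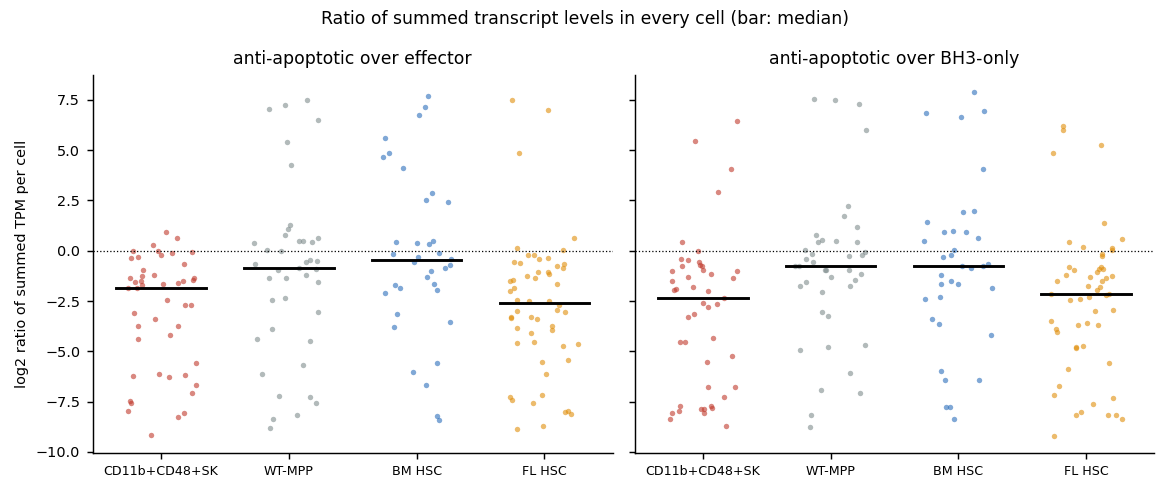
Each point is 1 cell and each bar a median, on a log2 scale of the ratio of summed TPM, left for anti-apoptotic over effector genes and right for anti-apoptotic over BH3-only genes. Medians on the left are -1.85 and -2.59 in CD11b+CD48+SK and FL HSC and -0.87 and -0.48 in WT-MPP and BM HSC, and all 4 populations overlap.

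With each other, the members showed weak rank correlations from cell to cell. Spearman's rho over the 45 pairs had a median of -0.009 in CD11b+CD48+SK (47 cells, from -0.25 to 0.23), 0.05 in WT-MPP (41 cells, -0.17 to 0.44) and 0.07 in BM HSC (36 cells, -0.37 to 0.44), and over the 36 pairs without Pmaip1 it was -0.04 in FL HSC (56 cells, -0.26 to 0.25). The highest value in WT-MPP, Bid with Bad (0.44), was -0.10 at its lowest in another population. Bax with Bid (0.12 to 0.17) and Bak1 with Bid (0.02 to 0.28) were above 0 in all 4 populations and Bcl2l11 with Bak1 (-0.20 to -0.01) below 0 in all 4, and given the number of genes per cell Bax with Bid reached -0.005. Bcl2 with Bcl2l1 averaged 0.08 over the populations and Bax with Bak1 averaged -0.07. Values this weak in sparse data are no finding.

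Among 5386 genes present in 20% or more of the cells in each population, those most like a member were no more than weakly so. The 3 nearest to Mcl1 by mean rho over the 4 populations were Arhgap6 (0.30), Casp6 (0.29) and the immediate early gene Fos (0.28). Nearest to Bax were Shmt2 (0.29), Igfbp4 (0.27) and Naa20 (0.27), and nearest to Bid were Utp18 (0.31), Ldha (0.29) and Nrbp1 (0.29). Bad had BC017158 (0.31), Dbnl (0.30) and Ascc2 (0.30), and Bbc3 had Txnip (0.29), Tprgl (0.28) and Aldh3a2 (0.28). These 5 members were the ones present in enough cells to be ranked.

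Other readouts moved with the populations and are given beside the members. The mean log2(TPM+1) of 30 genes of S and G2M phase had a median over cells of 2.60 in CD11b+CD48+SK, 1.38 in BM HSC, 0.99 in WT-MPP and 2.72 in FL HSC. That of immediate early genes, which also rise when cells are dissociated, was 2.52, 4.06, 5.59 and 3.74. Heat shock genes were at 6.04, 5.12, 5.97 and 6.09. Within populations Bax had a rho of -0.23 to 0.31 with the S and G2M genes and Bcl2 of -0.12 to 0.35, and Mcl1 had 0.19 to 0.35 with the immediate early genes. Given the number of genes per cell, the latter was 0.03 in BM HSC, 0.14 in WT-MPP, 0.28 in CD11b+CD48+SK and 0.34 in FL HSC. Bcl2 had a rho of 0.43 with the number of genes per cell in CD11b+CD48+SK and Bax of 0.43 in BM HSC. Their part in the differences between populations was not tested.

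Of the other Bcl2 family genes, 12 of 16 were listed and 6 passed the filter. Bcl2l12, which acts in the nucleus and on caspases, was present in 74.5% of CD11b+CD48+SK, 25% of BM HSC, 51.2% of WT-MPP and 87.5% of FL HSC, with differences of 2.02 in CD11b+CD48+SK minus WT-MPP and 3.56 in FL HSC minus BM HSC. Bok, a further effector, was present in 41.1% of FL HSC and 10.6% of CD11b+CD48+SK but 2.78% of BM HSC and 0 of 41 WT-MPP. Bnip3, a mitophagy receptor, was present in 44.7% of CD11b+CD48+SK against 69.4 to 78.0% of the others, a difference of -2.15 from WT-MPP, and its relative Bnip3l was in 91.5% against 96.4 to 100%. Bcl2l14 was between 2.78 and 19.6% and Bcl2l13 between 16.7 and 26.8%. Bcl2l2, Bcl2a1a, Bcl2a1b, Bcl2a1d, Bik and Bmf did not pass, and the Bcl2a1 copies are near-identical, so their reads are uncertain.

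Downstream of the mitochondria, 4 of the 13 apoptosome and caspase genes were past 1 higher in CD11b+CD48+SK than in WT-MPP and 2 lower, with a median of 0.60. They included the mitochondrial protease Htra2 (2.04), Aifm1 (1.51) and, lower, Casp6 (-1.30). FL HSC minus BM HSC had 5 higher and 0 lower, among them Casp6 at 2.18, Casp2 at 1.56 and Htra2 at 1.27. Inhibitors of apoptosis gave 0 higher and 1 lower of 6 in CD11b+CD48+SK minus WT-MPP (Birc2, -1.51, a ubiquitin ligase) and 0 of 6 in FL HSC minus BM HSC, where Birc6 had the largest value (-0.88).

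In the death receptor pathway, which reaches the mitochondria through Bid, 2 of 7 genes were higher in CD11b+CD48+SK than in WT-MPP. The TNF receptor Tnfrsf1a differed by 2.93 and was present in 85.1% against 36.6% of cells, and Casp8, the protease that cuts Bid, differed by 1.49 and was in 97.9% against 75.6%. Both were also higher in FL HSC than in BM HSC, by 1.53 and 1.26, while the ligand Tnfsf10 (TRAIL) was lower (-1.77). Of p53 and its targets, 2 of 16 were higher and 2 lower in CD11b+CD48+SK than in WT-MPP, Phlda3 (1.19) and Aen (1.06) against Ccng1 (-1.30) and Mdm2 (-1.01), with a median of -0.09. FL HSC minus BM HSC gave 3 higher and 2 lower, among them Sesn1 (2.35) and Trp53 (1.40) against Ddit4 (-2.09) and Plk2 (-1.76). Of 19 partners and turnover factors, 5 were higher and 0 lower in CD11b+CD48+SK than in WT-MPP, led by Dynll1 (2.20), a dynein light chain that holds Bim and Bmf, Hax1 (1.66), Bag1 (1.63) and the 14-3-3 gene Ywhaq (1.26). In FL HSC minus BM HSC 3 were higher and 0 lower, with Dynll1 at 2.46 and the channel genes Vdac1 and Vdac2 at 1.65 and 1.48. Against the 24% and 31% of all genes past the mark in these comparisons, none of these counts is read as particular to a list. The differences of these lists and of the other Bcl2 family genes are over all cells, without alternatives. WT-MPP had the lowest median number of genes per cell (3844). The 3 members past the mark against WT-MPP fell within it in cells with 3500 to 5000 genes. Whether the list differences hold in such cells was not tested.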

How the data were processed

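Single cells were amplified with the Discover-sc WTA Kit V2, a Smart-Seq2 type method, and libraries were made with the TruePrep DNA Library Prep Kit V2. The authors aligned reads to mm10 with HISAT2 2.1.0 and SAMtools 0.1.19 and deposited TPM values per gene and cell, estimated with StringTie 1.3.4. Of 181 columns, 1 named as a WT-MPP cell matched no sample and was not used. The annotation behind the table is not given in the sources used here. From the TPM values, log2(TPM+1) was averaged over the cells of a population and subtracted between populations in Python 3.11.15 (numpy 2.4.6, pandas 2.3.3, scipy 1.17.1, matplotlib 3.10.9) over 10856 genes present in 10% or more of the cells in 1 or more populations. The code was checked on WT-MPP cells with known changes put into abundant, common genes, which does not cover genes as sparse as most members. Differences of 1 or more were counted, without a test. Alternatives changed the pseudocount, the mean, the scaling, the cells and the level that counts as present. Depth is unknown, so the precision is that of counting cells. Positions are from GENCODE M21, promoters from RefSeq GRCm38.p6. Named were all 10 members, the other Bcl2 family genes past the filter, the 4 genes of largest difference in each pathway list and the 3 genes nearest to each common member. Members and lists were chosen with earlier results of these data known. Some genes named by the rule are given as counts only. A gene counted in the pathway lists is not reported here by name.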

Additional observations from a re-analysis of the deposited data

How the results depend on the processing

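No paired analysis was possible because the replicate numbers shared by the populations only name cells and no result comes from a test. Of 350 differences under alternatives, 252 kept direction and side of the mark, 42 came past it and 26 fell within it in the same direction, and 30 changed sign. Of these 30, 12 came with log2 of the mean TPM and 9 in cells with 3500 to 5000 genes, 1 was past the mark after the change (Bak1, CD11b+CD48+SK minus BM HSC, -1.003 with log2 of the mean TPM) and 1 was past it before: Bid, CD11b+CD48+SK cells minus WT-MPP, at -0.13 in cells with 3500 to 5000 genes. The number of members past 1 in CD11b+CD48+SK cells minus WT-MPP (3) was 7 with a pseudocount of 0.1, 0 with 10, 1 with log2 of the mean TPM, 5 with cells scaled by the median ratio and 2 in cells with 3500 to 5000 genes, neither of them among the 3. Minus BM HSC (1) it was 6 with a pseudocount of 0.1, 5 with log2 of the mean TPM, 2 with scaling, 2 without cells under 3000 genes and 3 in cells with 3500 to 5000 genes. Minus FL HSC (2) it was 5 with a pseudocount of 0.1, 1 with 10, 4 with log2 of the mean and 5 in cells with 3500 to 5000 genes. FL HSC minus BM HSC (6) gave 1 with a pseudocount of 10 and 2 with log2 of the mean. WT-MPP minus BM HSC (0) gave 1 with a pseudocount of 0.1, 2 with log2 of the mean, 1 without cells under 3000 genes and 2 in cells with 3500 to 5000 genes. The share of all genes past 1 was not computed under these alternatives or those below. The counts are therefore not read as particular to the members. Over all genes, the median in CD11b+CD48+SK minus WT-MPP was 0.35 with a pseudocount of 0.1 and -0.32 with log2 of the mean TPM. The causes were not tested. Leaving out each cell in turn, chosen after seeing the data, gave 2 to 4, 1 to 3, 2 to 3, 6 to 6 and 0 to 1. Scaling cells by genes above 0, also chosen after seeing the data, moved the median of all genes in CD11b+CD48+SK cells minus WT-MPP from 0.21 to -0.07, with 1 member higher (Bid) and 2 lower (Mcl1, -1.23, and Bcl2l1, -1.16). In FL HSC minus BM HSC it gave 4 higher and 2 lower, the second being Mcl1 (-1.15). The median number of members present per cell was 5 in WT-MPP and 5 in BM HSC when any TPM above 0 counted. Interval overlaps at other levels of presence, and combinations and sums in cells with 3500 to 5000 genes, were added after seeing the data. With 1 sample per population and depth unknown, shares and levels near 0 carry the widest uncertainty.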
